A study of Arabidopsis thaliana with 12 samples.

Results

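The genes described here are 5 nuclear genes of Arabidopsis thaliana that encode proteins of the chloroplast (plastid) ribosome: AT1G29070 (L34), AT3G54210 (L17) and AT4G01310 (L5) of the large subunit, and AT1G64510 (S6) and AT3G13120 (S10) of the small subunit. Members were the probes for which the platform annotation lists exactly 1 gene, that gene being one of these 5. Each gene had 1 such probe, so they take 5 of the 692 probes with 1 gene and of the 3439 probes in all, and no probe with several genes listed any of them. The annotation gives loci only, so the protein names come from general knowledge of the Arabidopsis genome. AT1G29070 and AT1G64510 lie on chromosome 1, AT3G54210 and AT3G13120 on chromosome 3 and AT4G01310 on chromosome 4.

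Plastids keep a ribosome of bacterial type that translates the few proteins still encoded in the plastid genome, among them core subunits of both photosystems. Some of its proteins are made in the plastid itself, but many are encoded in the nucleus, translated in the cytosol and imported. In leaves this ribosome supplies the photosynthetic membrane with plastid-encoded subunits, which are assembled with nuclear-encoded partners such as PSI-D.

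Total RNA was profiled in 6 samples of the psad1 mutant and 6 wild-type (WT) samples, both in the Columbia 0 ecotype. In psad1 the protein PSI-D1 is missing, a form of PSI-D, which docks ferredoxin at photosystem I on its stromal face. A further gene, PSAD2, encodes the other form. The labels record no treatment, and the sources used here do not give the allele, tissue, plant age, growth conditions or any pooling of plants. The transcript of PSAD1 was not analysed here, so the genotype labels were taken as given.

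Mean intensity per sample lay between 1.06 and 1.07 in psad1 and between 1.05 and 1.07 in WT, and median intensity between 0.554 and 0.623 in psad1 and between 0.576 and 0.599 in WT. The samples came in sets of 2, formed in either genotype by numbers 1 and 2, 3 and 4, and 5 and 6, whose deviations from the genotype's mean correlated across probes (r between 0.469 and 0.649). The labels do not say what the samples of a set share, or that any were grown or extracted apart. The p-values here therefore reflect sample-to-sample spread, and this may be technical. Each result is therefore given on the 12 samples and on 3 set averages per genotype.

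None of the 5 genes passed the test between psad1 and WT, and L34 was the only member with lower mean log2 intensity in psad1, apart from L17 at −0.02 after a position correction. The L34 gene averaged 0.76 times its WT level in psad1, while L17, L5, S6 and S10 averaged 1.07 to 1.13 times theirs. The test was limma on log2 intensity, with p-values adjusted over all 3202 tested probes and a threshold of 0.05. It called 0 of 5 members on 12 samples, where 15.8% of tested probes were called, and 0 of 5 on set averages, where 0.874% were. Without adjustment, 1 of 5 members (L34) had a limma p under 0.05 in either fit, against 33.3% of tested probes on 12 samples and 14.9% on set averages. The median log2 change was 0.10 over the 5 members and −0.02 over all tested probes, and 4 of 5 members had a change above 0, as did 46.7% of tested probes. In RNA from whole samples, fewer cells of a type and less RNA per cell cannot be told apart.

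**Figure D1:**
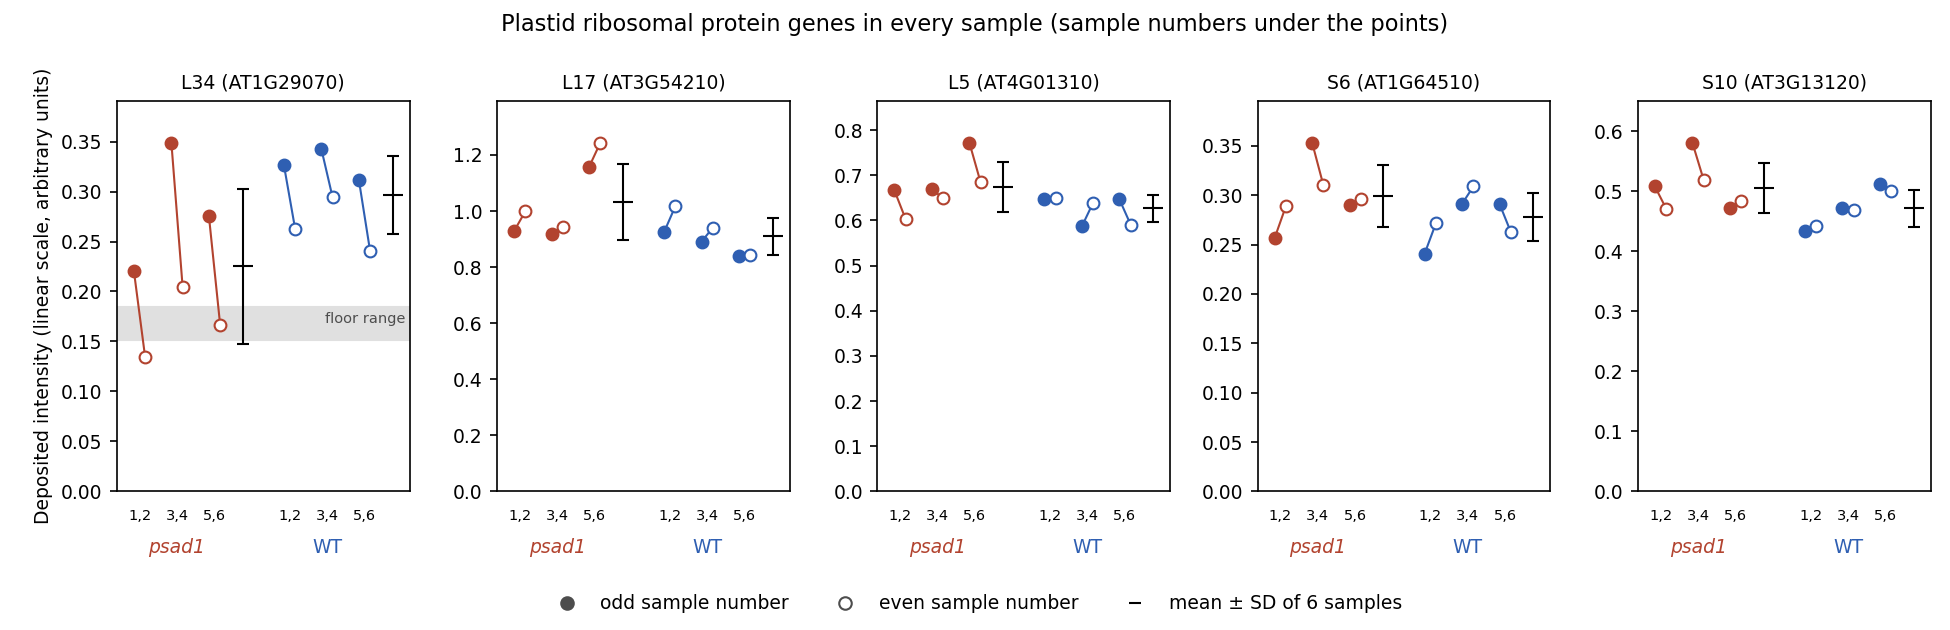
Deposited intensity (linear scale, arbitrary units) of each gene in every sample, psad1 left and WT right in each panel; lines join the samples of a set, filled points have odd and open points even sample numbers, and black bars are the mean ± SD of 6 samples. In L34 the even sample lay below the odd one in 6 of 6 sets, and psad1 samples 2 and 6 were at or below the intensity floor; in L17 psad1 samples 5 and 6 (1.16 and 1.24) stood above all others.

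Among the large subunit genes, L34 encodes a small basic protein of the large subunit. Its intensities in psad1 samples 1 to 6 were 0.221, 0.134, 0.349, 0.205, 0.276 and 0.167. In WT samples 1 to 6 they were 0.327, 0.263, 0.342, 0.294, 0.312 and 0.240. The genotypes overlapped: 4 psad1 samples lay below every WT sample, whereas psad1 sample 3 lay above every WT sample. The mean was 0.225 ± 0.0774 in psad1 and 0.296 ± 0.0389 in WT (SD, n = 6 each). The log2 change was −0.40 (SE 0.16, 95% interval −0.74 to −0.06), with a limma adjusted p of 0.0957 (12 samples) and 0.216 (set averages). Of all tested probes, 6.21% had a change at least as wide.

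The L34 probe was dim, which limits this value. The floor, set per sample at the 5th percentile of positive intensities, lay between 0.152 and 0.184 over the 12 samples. Psad1 samples 2 and 6 were at or below it, and the brightest psad1 and WT samples stood at 1.92 and 1.95 times the floor. Values at the floor understate a decrease. With the floor raised to the 10th percentile the log2 change was −0.17 (SE 0.11). With an offset of 0.25 added in place of a floor it was −0.21 (SE 0.09). Both were short of the threshold (limma adjusted p of 0.294 and 0.113). The offset is close to the mean of L34 itself (0.225 in psad1 and 0.296 in WT), so it shrinks the log2 change by construction.

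Within sets, the samples of L34 differed in one direction. The even-numbered sample was below its odd-numbered partner in 6 of 6 sets. It stood at 60.9%, 58.6% and 60.5% of its partner in the 3 psad1 sets, and at 80.4%, 85.9% and 77.1% in the 3 WT sets. On the log2 scale of floored values the even sample minus the odd one averaged −0.63 in psad1 and −0.30 in WT. The gap was thus wider in each psad1 set than in each WT set, a difference that was not tested and that the floor holds down in psad1 sets 1 and 3. Over all tested probes, 14.9% had partners differing in the same direction in 6 of 6 sets. L17 was also among these, with the even sample higher in 6 of 6 sets and a mean gap of 0.08. A mean gap at least as wide as that of L17 was found in 32.1% of tested probes. The mean gap of L34 over 6 sets, −0.47, was matched or exceeded in size by 6 of 3202 probes (0.187%), itself included, and the median size was 0.0526.

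**Figure D2:**
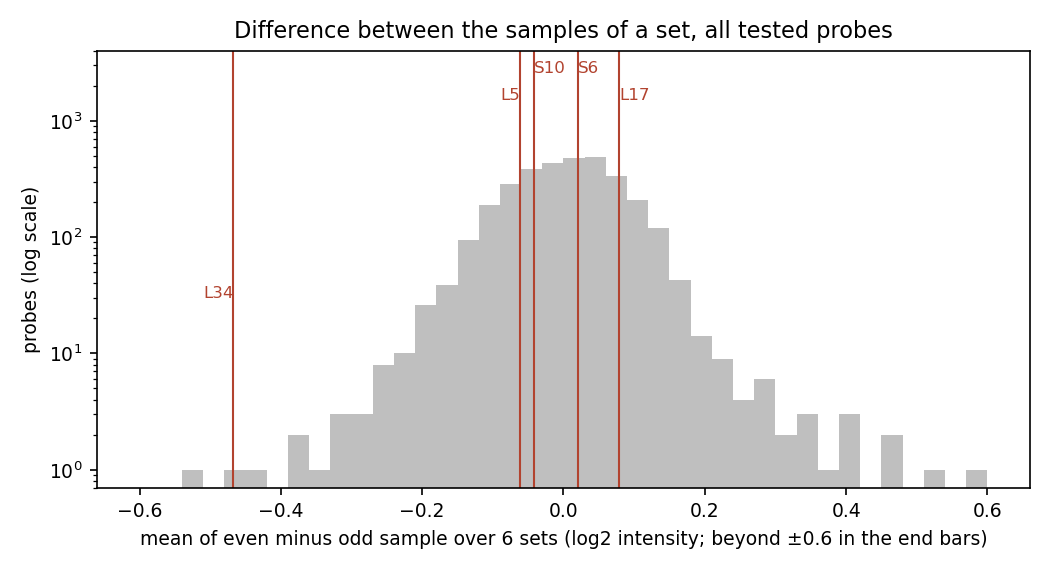
Number of tested probes (log scale) by the mean difference, even minus odd sample, over the 6 sets (log2 intensity); red lines mark the 5 genes. L34 lies at −0.47, in the sparse left end, while the other 4 genes lie between −0.06 and 0.08.

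The difference between genotypes was therefore read within odd and even samples as well. In even-numbered samples L34 averaged 0.169 ± 0.0351 in psad1 and 0.266 ± 0.027 in WT (SD, n = 3 each), and the ranges did not overlap, as was the case for 20.8% of tested probes. In odd-numbered samples it averaged 0.282 ± 0.0643 in psad1 and 0.327 ± 0.0154 in WT (SD, n = 3 each), with overlap, whereas 20% of tested probes had none there. The log2 change was −0.57 (SE 0.13, limma adjusted p 0.0837) in even samples and −0.24 (SE 0.16, adjusted p 0.520) in odd samples, fits that called 0.656% and 0.718% of tested probes. With odd or even number as a further term, a fit chosen after these values were seen, the SE on 12 samples was 0.11 and limma's adjusted p was 0.0268. That fit called 15.5% of tested probes. With the sets as a random block in addition, the adjusted p was 0.295, in a fit that called 2.56% of tested probes. With that block and no odd or even term, the SE was 0.33 and limma's adjusted p was 0.566. That fit gives every probe the same correlation within sets (0.727), whether or not it holds for L34, whose partners differed in each set. On set averages the SE was 0.14. Leaving out psad1 sample 3, the one above the WT range, gave −0.53 and an adjusted p of 0.0145 on 12 samples, whereas leaving out its whole set gave 0.153 on set averages.

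L17 lies near the exit of the peptide tunnel in bacterial ribosomes. Its intensities in psad1 samples 1 to 6 were 0.929, 0.999, 0.917, 0.944, 1.16 and 1.24. In WT samples 1 to 6 they were 0.925, 1.02, 0.891, 0.941, 0.839 and 0.843. Psad1 samples 5 and 6 lay above all WT samples, WT samples 5 and 6 lay below all others, and the remaining 8 samples were mixed. The mean was 1.03 ± 0.137 in psad1 and 0.909 ± 0.0672 in WT (SD, n = 6 each), a log2 change of 0.18 (SE 0.09, 95% interval −0.01 to 0.36). It did not pass, with a limma adjusted p of 0.164 (12 samples) and 0.525 (set averages). With psad1 samples 5 and 6 left out of the set averages, the log2 change was 0.06.

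Deviations of L17 resembled those of probes with nearby numbers. A position correction subtracted from each sample the running median of deviations over 25 neighbouring probe numbers, on the assumption that numbering follows the layout of the array. That window included the probe itself, so the correction can remove part of a gene's own deviation. The SD of L17 over 6 samples on the log2 scale was then 0.0405 in psad1 and 0.0401 in WT, against 0.184 in psad1 and 0.105 in WT before. The corrected log2 value was the same, −0.0527, in psad1 samples 4 and 5 and WT sample 4. In these samples L17 was itself the running median, so the corrected spread and change are partly set by the method. The log2 change after correction was −0.02 (SE 0.04, 95% interval −0.11 to 0.06), which is of the opposite sign and did not pass (limma adjusted p 0.785). With the correction 13.7% of tested probes were called, and 0 of 5 members.

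L5, the third large subunit gene, encodes the protein that binds 5S ribosomal RNA in bacterial ribosomes. Its intensities in psad1 samples 1 to 6 were 0.667, 0.603, 0.669, 0.649, 0.772 and 0.684. In WT samples 1 to 6 they were 0.648, 0.649, 0.587, 0.639, 0.647 and 0.591. Of the psad1 samples, 5 of 6 lay above every WT sample, sample 4 by a margin in the fifth decimal place, and sample 2 lay inside the WT range. The mean was 0.674 ± 0.0556 in psad1 and 0.627 ± 0.0296 in WT (SD, n = 6 each). The log2 change of 0.10 (SE 0.07, 95% interval −0.04 to 0.24) did not pass, with a limma adjusted p of 0.291 (12 samples) and 0.653 (set averages). It was 0.06 without psad1 sample 5, and 0.05 on set averages without psad1 samples 5 and 6. The position-corrected log2 change was 0.01 (SE 0.05).

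The small subunit genes S6 and S10 differed less between samples than L34. S6 pairs with S18 on the platform of the small subunit in bacteria. Its lowest, median and highest intensities were 0.257, 0.293 and 0.353 in psad1, against 0.241, 0.281 and 0.309 in WT. Psad1 sample 3 and, by a small margin, psad1 sample 4 lay above the WT range, and the other 4 psad1 samples lay within it. The mean was 0.299 ± 0.0318 in psad1 and 0.278 ± 0.0243 in WT (SD, n = 6 each). The log2 change was 0.11 (SE 0.08, 95% interval −0.07 to 0.28), with a limma adjusted p of 0.382 (12 samples) and 0.686 (set averages). It was 0.06 without psad1 sample 3 and 0.07 without WT sample 1. On set averages it was 0.03 without psad1 samples 3 and 4, 0.05 without WT samples 1 and 2, 0.16 without WT samples 3 and 4, and 0.17 without psad1 samples 1 and 2. The position-corrected log2 change was 0.13 (SE 0.07, limma adjusted p 0.213). This probe was also dim, between 1.58 and 1.94 times the floor in psad1 and between 1.37 and 1.82 times in WT, with no sample at the floor.

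S10 sits in the head of the small subunit and in Escherichia coli also takes part in transcription antitermination. Its lowest, median and highest intensities were 0.471, 0.496 and 0.581 in psad1, against 0.433, 0.471 and 0.512 in WT. All 6 psad1 samples lay above the WT median, but only samples 3 and 4, one set, lay above the WT range. The mean was 0.506 ± 0.0415 in psad1 and 0.471 ± 0.0307 in WT (SD, n = 6 each). The log2 change was 0.10 (SE 0.07, 95% interval −0.05 to 0.25), with a limma adjusted p of 0.319 (12 samples) and 0.681 (set averages). It was 0.06 without psad1 sample 3. On set averages it was 0.04 without psad1 samples 3 and 4, 0.05 without WT samples 1 and 2, and 0.15 without WT samples 5 and 6. The position-corrected log2 change was 0.08 (SE 0.06).

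**Figure D3:**
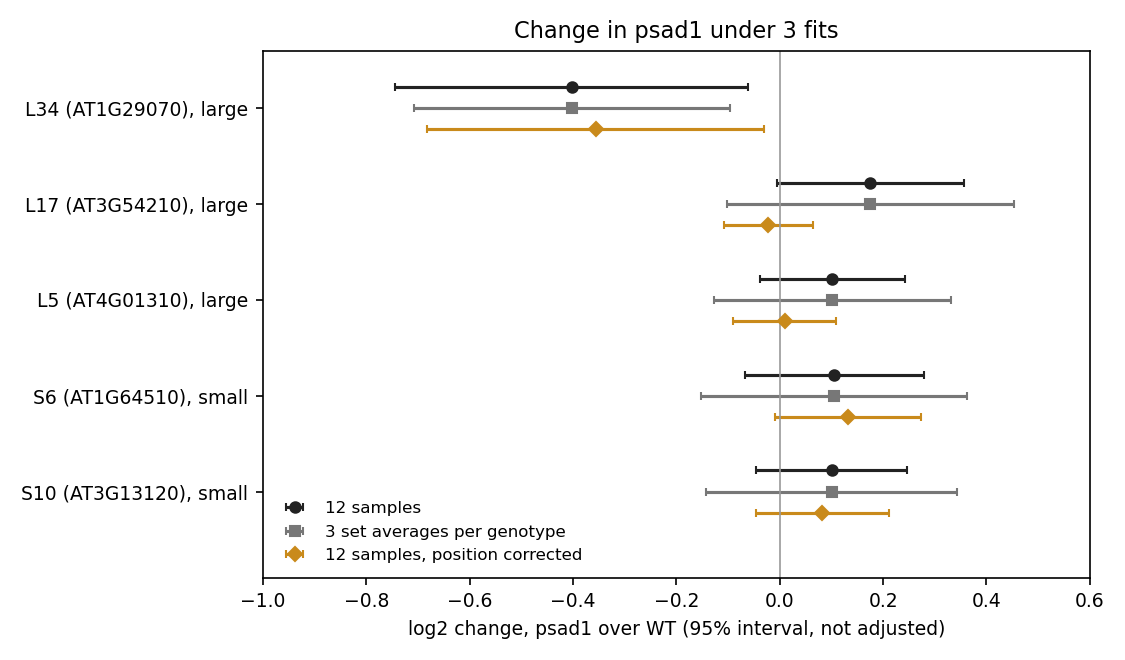
Log2 change of each gene, psad1 over WT, with its 95% interval from limma, on 12 samples, on 3 set averages per genotype and on 12 samples after the position correction. L34 alone lies below 0 in all 3 fits, and L17 lies at 0.18 on 12 samples and at −0.02 after the correction.

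In no member were the genotypes free of overlap, on 12 samples or on set averages, while 9.24% of tested probes had no overlap on 12 samples and 21.1% had none on set averages. The 95% intervals on set averages, not adjusted for the number of probes, give the precision of the changes in that fit. They ran from 0.612 to 0.935 times the WT level for L34 and from 0.931 to 1.37 times for L17. They ran from 0.916 to 1.26 times for L5, from 0.900 to 1.29 times for S6 and from 0.906 to 1.27 times for S10. For L17, L5, S6 and S10 they include the WT level itself, so these samples show neither a change nor its absence within those bounds. For L34 the interval lay below the WT level in this fit and on 12 samples. It included that level with the sets as a random block (0.470 to 1.22 times), a fit that gives every probe the same correlation within sets. It also did so with the floor at the 10th percentile (0.754 to 1.05 times). Values at the floor make its lower end uncertain as well.

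The spread among samples also set L34 apart in size. Its coefficient of variation over 6 samples was 34.4% in psad1 and 13.1% in WT. The other 4 genes had between 8.21% and 13.2% in psad1 and between 4.73% and 8.77% in WT. On deposited values the coefficient of variation was higher in psad1 than in WT in each of the 5 genes, a difference that was not tested. The share of all tested probes with this order was not computed, so it cannot be read as a trait of these genes. Median intensity per sample also ranged more widely in psad1 (0.554 to 0.623) than in WT (0.576 to 0.599). After the position correction this order did not hold for S10, with a log2 SD of 0.0626 in psad1 and 0.129 in WT, and the SDs were close for S6 (0.115 in psad1 and 0.117 in WT) and L17. Psad1 sample 3 was the highest psad1 sample for L34, S6 and S10, and psad1 sample 2 was the lowest for L34, L5 and S10.

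To compare the subunits, each gene was set relative to its WT mean on the log2 scale, and the mean of S6 and S10 was subtracted from the mean of L34, L17 and L5 in each sample. This is a description of 5 genes, with no test. The difference in psad1 samples 1 to 6 was −0.10, −0.29, −0.21, −0.29, 0.15 and −0.13. In WT samples 1 to 6 it was 0.24, 0.08, −0.01, −0.05, −0.09 and −0.17. Psad1 sample 5 was the only psad1 sample above 0, and the genotypes overlapped. The mean was −0.14 ± 0.165 in psad1, against 0 ± 0.141 in WT, which is 0 by construction (SD, n = 6 each).

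On these values the sign of the mean difference depended on L34. With L17 and L5 as the large subunit genes, the lowest, median and highest differences were −0.27, 0.04 and 0.29 in psad1, against −0.13, −0.07 and 0.20 in WT. The mean in psad1 was then 0.04 ± 0.207 (SD, n = 6). After the position correction, a combination added after seeing the data, the mean difference without L34 was −0.11, and with L34 it was −0.23. Without L34 it was also negative, at −0.07, on set averages without psad1 samples 5 and 6, and at −0.02 without WT samples 5 and 6. With a single sample left out, it was −0.015 without psad1 sample 5 and −0.002 without psad1 sample 6.

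**Figure D4:**
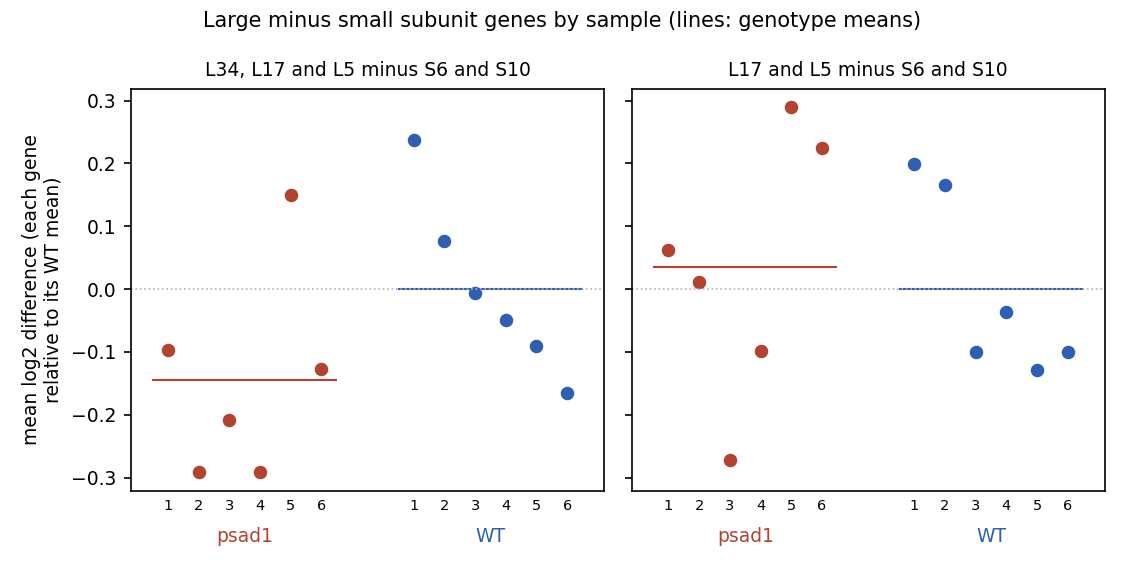
Mean log2 level of the large subunit genes minus that of the small subunit genes in each sample, every gene relative to its WT mean; left with all 3 large subunit genes, right without L34, and lines are genotype means. The psad1 mean is −0.14 on the left and 0.04 on the right, and the genotypes overlap in both panels. These are values without the position correction, with which the mean without L34 is −0.11.

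No shared variation of the 5 genes as one group was found across the samples. Of the 10 pairs of members, 8 had a Pearson's r above 0 over 12 samples, with a median of 0.09 and a range of −0.48 to 0.66. For comparison, the 204480 pairs of the 640 tested probes with 1 gene had a median r of 0.11, and 58.5% of them were above 0. Of the 10 pairs, 0 passed a 2-sided permutation test adjusted over the 10 pairs, and 2 pairs had an unadjusted p under 0.05. Samples of a set share what sets them apart, so 12 samples are fewer than 12 independent points. Over 6 set averages, 5 of 10 pairs were above 0 and 0 passed the exact permutation test after adjustment. So few points cannot show that the genes vary independently.

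S6 and S10 form the only pair within the small subunit. Pearson's r was 0.66 and Spearman's rho 0.48 over 12 samples, with permutation p of 0.0213 for r and 0.122 for rho (adjusted over 10 pairs, 0.132 and 0.406). With deviations from the genotype means r was 0.59, and after the position correction 0.55. Without psad1 sample 3 and WT sample 1, the samples farthest from the median of S6, r was −0.00757. These were taken out as the extremes of S6. The r of 0.66 thus depended on these samples. Taking out the extremes of a gene narrows its range, which lowers r where there is a relation. This drop therefore does not decide whether S6 and S10 are related. Over 6 set averages r was 0.76, with an exact permutation p of 0.0806 (adjusted 0.403). As high an r was found in 8.36% of all pairs of tested probes with 1 gene over 12 samples and in 9.84% over set averages.

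Within the large subunit, L17 and L5 had an r of 0.65 and a rho of 0.57 over 12 samples, with permutation p of 0.0263 for r and 0.0558 for rho (adjusted 0.132 and 0.279). Over 6 set averages r was 0.92 and rho 0.77, with exact permutation p of 0.025 and 0.103 (adjusted 0.25 and 0.699). Of all pairs of tested probes with 1 gene, 9.28% had as high an r over 12 samples and 1.77% over set averages. Without psad1 samples 5 and 6, the farthest for L17, r was 0.23, and after the position correction it was 0.13. That set holds the extremes of L17, so the lower r without it does not decide whether L17 and L5 are related.

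Over 12 samples L34 had no positive r of that size with its subunit partners. With L5 its r was 0.02, and with L17 it was −0.48 (rho −0.58), with a permutation p of 0.113 for r and 0.0522 for rho (adjusted 0.377 and 0.279). For deviations from the genotype means, the r of L34 was 0.43 with L5, 0.41 with S6, 0.43 with S10 and −0.25 with L17. None of these passed the permutation test (adjusted p 0.451 to 0.676). Without psad1 samples 2 and 6, both at the floor for L34, the r of L34 and L17 was −0.13. Across subunits the widest relation was between L17 and S10, with r −0.27 over 12 samples and −0.70 for deviations from the genotype means (permutation p 0.0178, adjusted 0.178). For such deviations, 97.4% of all pairs of tested probes with 1 gene had an r of −0.70 or higher. After the position correction the r of L17 and S10 was 0.03.

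**Figure D5:**
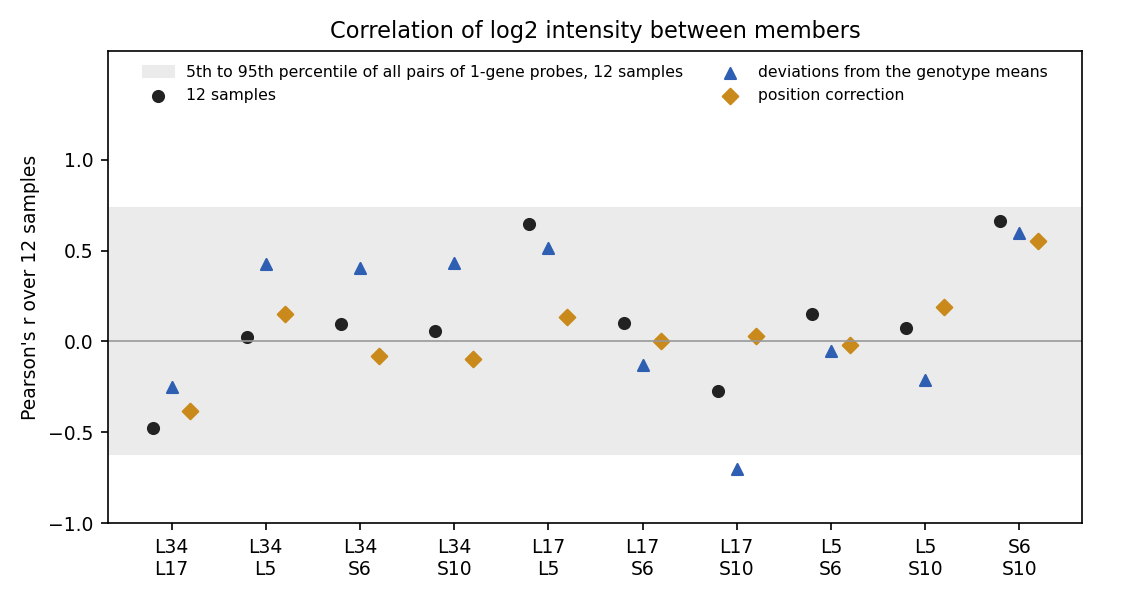
Pearson's r of log2 intensity over 12 samples for the 10 pairs of genes, as deposited, as deviations from the genotype means, and after the position correction; the grey band spans the 5th to 95th percentile of all pairs of 1-gene probes (−0.62 to 0.73) as deposited. All 10 pairs as deposited lie inside the band, and the r of L17 and L5 is 0.65 as deposited and 0.13 with the correction.

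The genes most like each member were also looked up. Likeness was Pearson's r of log2 intensity over 12 samples, searched among the 639 other tested probes with 1 gene, so high values are partly a result of the search and no p is given. For L17 the closest were CRR21, which encodes a factor for RNA editing of plastid ndhD transcripts (r 0.96), and CHLM, a methyltransferase gene of chlorophyll synthesis (r 0.96). Their probe numbers lay 208 and 352 from that of L17. After the position correction these values were 0.47 for CRR21 and 0.49 for CHLM.

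For L34 the closest genes were AGL26 (r 0.86) and AT4G15840 (r 0.84), and after the position correction they still had r of 0.81 and 0.72. Both had lower values in psad1, with log2 changes of −0.21 and −0.21. The search ran over samples of both genotypes, so this direction partly follows from it and adds no evidence for L34. With deviations from the genotype means r was 0.83 and 0.78. For L5 they were AT1G31220 (r 0.84, and 0.85 after the correction) and AT2G44530 (r 0.84, and 0.42 after it). For S6 they were AT1G33250 (r 0.83) and AT2G37580 (r 0.78), with 0.73 and 0.72 after the correction. For S10 they were AT2G28200 (r 0.87) and AT3G55070 (r 0.75), with 0.40 and 0.41 after it. No member was among the 2 closest genes of any other member.

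The rest of the plastid translation machinery could hardly be followed on this array. Of 36 further nuclear genes for plastid ribosomal proteins on a list, 1 had a probe with 1 gene. It was AT5G65220, the gene for L29 of the large subunit, and it was listed at 0 in all 12 samples, one of 123 such probes, so it has no level here and was not tested. Of 9 genes for plastid translation factors, 0 had a probe with 1 gene, and 3 were listed on probes with several genes. No other probe with 1 gene had a RefSeq symbol or synonym naming a ribosomal protein. Of 12 genes of green tissue and photosynthesis 7 were tested, of which 0 rose and 1 (PRK, of the Calvin cycle) fell on 12 samples and 0 passed on set averages. Of 5 markers of non-green tissue 0 had a probe with 1 gene, so the tissue could not be checked from them.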

How the data were processed

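The values were the authors' deposited intensities, 1 table of 3439 probes by 12 samples. The unit was taken from the values, which are never negative, skewed and on a linear scale. The sources used here do not name the scanner, the background correction or the scaling. Column means lay between 1.05 and 1.07, so the table was used as deposited, although column medians ranged from 0.554 to 0.623. With median centring the log2 changes were −0.41 for L34, 0.17 for L17, 0.09 for L5, 0.10 for S6 and 0.09 for S10. None of them passed. Of the probes, 692 list 1 gene, 870 several and 1877 are not listed, and 691 of the 692 were matched to the gene table of assembly TAIR10.1. No genome of the array's build was used, so no coordinates are printed.

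Intensities below a floor (5th percentile of positive values per sample) were set to it, and log2 was taken. A filter removed 237 probes that never exceeded the floor, and all 5 members stayed among the 3202 tested. The fit used limma 3.58.1 (R 4.3.3; lmFit, then eBayes) with genotype as its only term, and 2-sided p-values were adjusted by Benjamini-Hochberg over the whole set of tested probes, with a threshold of 0.05. Set averages were means of log2 values, and the consensus correlation within sets was 0.727. Correlations used 100000 permutations of 12 samples or all 720 orders of 6 set averages. Members, lists and alternatives were chosen with earlier results of these data known, and named genes were the members, the 2 closest genes to each and the list genes. The fits were tested on simulated data with 200 of 3202 probes changed: at a log2 change of 0.5, the 12 samples recovered 95% and set averages 61%, while 43.1% of calls with 12 samples and 7.83% with set averages were false. The number of arrays limits the precision.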

Additional observations from a re-analysis of the deposited data

How the results depend on the processing

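Against 505 probes called on 12 samples, set averages called 28, sets as a random block 84, and the position correction with set averages 59. Set averages without 1 set called 9 to 53 (11, 14 and 17 without WT sets 1, 2 and 3, and 14, 9 and 53 without psad1 sets 1, 2 and 3). Of the alternatives added after seeing the data, odd samples alone called 23, even samples alone 21, and the odd or even term with sets as a random block 82. The sample number as a replicate block called 761, and a replicate block of set numbers on set averages called 27. Alternatives not named here lay within 1.5 times of 505, and leaving out 1 sample gave 387 to 553. The labels do not say that psad1 and WT samples of 1 number belong together, so the main fit did not treat them as pairs. Their deviations correlated with r of 0.00805 to 0.483, over 0.1 for 4 of 6 numbers, which does not speak against pairing. The fit with sample number as a replicate block is the one that pairs them.

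AT1G29070 kept its sign in every alternative run (log2 change −0.57 to −0.17). It had −0.40 with limma adjusted p of 0.0188 with the replicate block and 0.0268 with the odd or even term. With sets as a random block limma's adjusted p was 0.566, and on set averages with the replicate block it was 0.146. Leaving out 1 sample gave −0.53 to −0.31, past the threshold without psad1 sample 3 only. AT3G54210 became −0.022 after the position correction, with 12 samples and with set averages, and the cause was not tested. The other 3 members kept their sign and passed in no alternative, but on set averages without 1 set their log2 changes ranged from 0.046 to 0.14 (AT4G01310), 0.029 to 0.17 (AT1G64510) and 0.039 to 0.15 (AT3G13120). Of 10 pairs, 0 passed in any alternative. The stricter filter on dim probes left AT1G29070 and AT1G64510 untested. The subunit difference lay between −0.23 and −0.061 with all 3 large subunit genes. Without AT1G29070 it was 0.036, and −0.11 with the position correction as well. Signal near the floor limits AT1G29070 and AT1G64510.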
